A study of Mus musculus with 8 samples.

Results

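Regulators of the transcription factor p53 and its direct target genes other than the inhibitors of cyclin-dependent kinases were followed in mouse embryonic stem cells after knockdown of subunits of condensin or cohesin. The set was given as 40 gene names, which stand for known roles in the p53 pathway. Wig1 and Lrdd are older names of Zmat3 and Pidd1, so there are 38 genes. Of these, 36 had a probe set that carries their symbol alone, among 18140 such genes in all, and the brightest probe set stood for each gene. Trp53 and Fdxr were not analysed here, so the set holds the genes around p53 and not p53 itself. All 36 passed the filter on low values, under which a gene had to exceed the median of an array on 2 or more of the 8. On all 8 arrays 31 members did so, while Tnfrsf10b, Bcl6 and Trp73 did on 7, Fas on 5 and Cd80 on 3.

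Cells of the V6.5 line received a lentiviral short hairpin RNA with polybrene at 8 µg/ml and were kept in puromycin at 4 µg/ml for 4 days, and total RNA taken on day 5 was hybridised to 1-colour Affymetrix arrays. The CapH2 knockdown, which targets Ncaph2 of condensin II, used hairpins 3 and 4. The Smc2 knockdown, which targets a subunit of both condensins, used hairpins 1 and 2, each hairpin on 1 array. The Smc1 knockdown, which targets Smc1a of the cohesin ring, and the control, which received the hairpin to GFP, were each 2 biological replicates of 1 hairpin. All 4 groups, the GFP cells included, thus carried a hairpin virus and went through selection, and each hairpin of Smc1 and GFP is the only one of its group, so that its other effects cannot be told apart from those of its target.

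In unstressed cells p53 is kept low by Mdm2, a ubiquitin ligase, and by its relative Mdm4. DNA damage and other stresses free p53, which then raises genes that slow growth, repair DNA or start cell death, and also Mdm2 itself, which closes a feedback loop. In embryonic stem cells p53 is known to lower Nanog and to favour differentiation.

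Each targeted gene fell in its own knockdown, to 12.9% (Ncaph2), 32.1% (Smc2) and 13.0% (Smc1a) of GFP. Array medians lay between 62.5 and 74.5 intensity units, and Pearson's r across the 12394 genes tested ran from 0.968 to 0.981 between the arrays of 1 group (4 pairs). The CapH2 hairpin 3 array was closer to the Smc2 hairpin 1 array (0.985), and the CapH2 hairpin 4 array to the Smc2 hairpin 2 array (0.984), than the arrays within either group were to each other (0.974 and 0.968). Summed embryonic stem cell markers, 12 of 12 tested, came to 91248 and 110139 in Smc1, against 144711 and 142838 in GFP, with 125751 to 137455 in CapH2 and Smc2. In the Smc1 knockdown 7 of these markers fell against GFP at an adjusted p below 0.05 (58.3%, beside 4.69% of all genes). Lin28a rose (8.33%, beside 9.3%). The log2 changes of the 7 ran from -2.37 (Fgf4) to -0.73 (Nanog).

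In the Smc1 knockdown 6 of the 36 members rose and 1 fell, at an adjusted p below 0.05 in limma, against GFP. The risen genes were Ddit4l, Plk2, Btg2, Phlda3, Mdm2 and Ccng1, and the gene that fell was Rrm2b. The 7 calls are 19.4% of the members, beside 14% of all genes tested, of which 9.3% rose and 4.69% fell. The median log2 change of the members was 0.21, beside 0.03 for all genes, with members between -1.54 and 1.91. Both Smc1 arrays lay above both GFP arrays in 19 members and below both in 7, which is 52.8% and 19.4%, beside 34.5% and 28.4% of all genes. A change above 0 was seen in 22 members (61.1%), beside 52.3% of all genes, and 12 members (33.3%) had an unadjusted p below 0.05, beside 31.2% of all genes.

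In the CapH2 and Smc2 knockdowns no member was called in limma, beside 0.0161% of all genes in each (0.00807% higher and 0.00807% lower). In each, 6 members (16.7%) had an unadjusted p below 0.05, beside 12.6% of all genes. In 9 members (25%) the CapH2 arrays were both higher than GFP and in 3 (8.33%) both lower, beside 25.3% and 21.9% of all genes. Both Smc2 arrays lay above both GFP arrays in 14 members (38.9%) and below both in 1 (2.78%), beside 23.1% and 21.7% of all genes. In both knockdowns 23 members (63.9%) had a change above 0, beside 51.3% of all genes in CapH2 and 49.5% in Smc2. All 3 comparisons use the same GFP arrays.

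**Figure D1:**
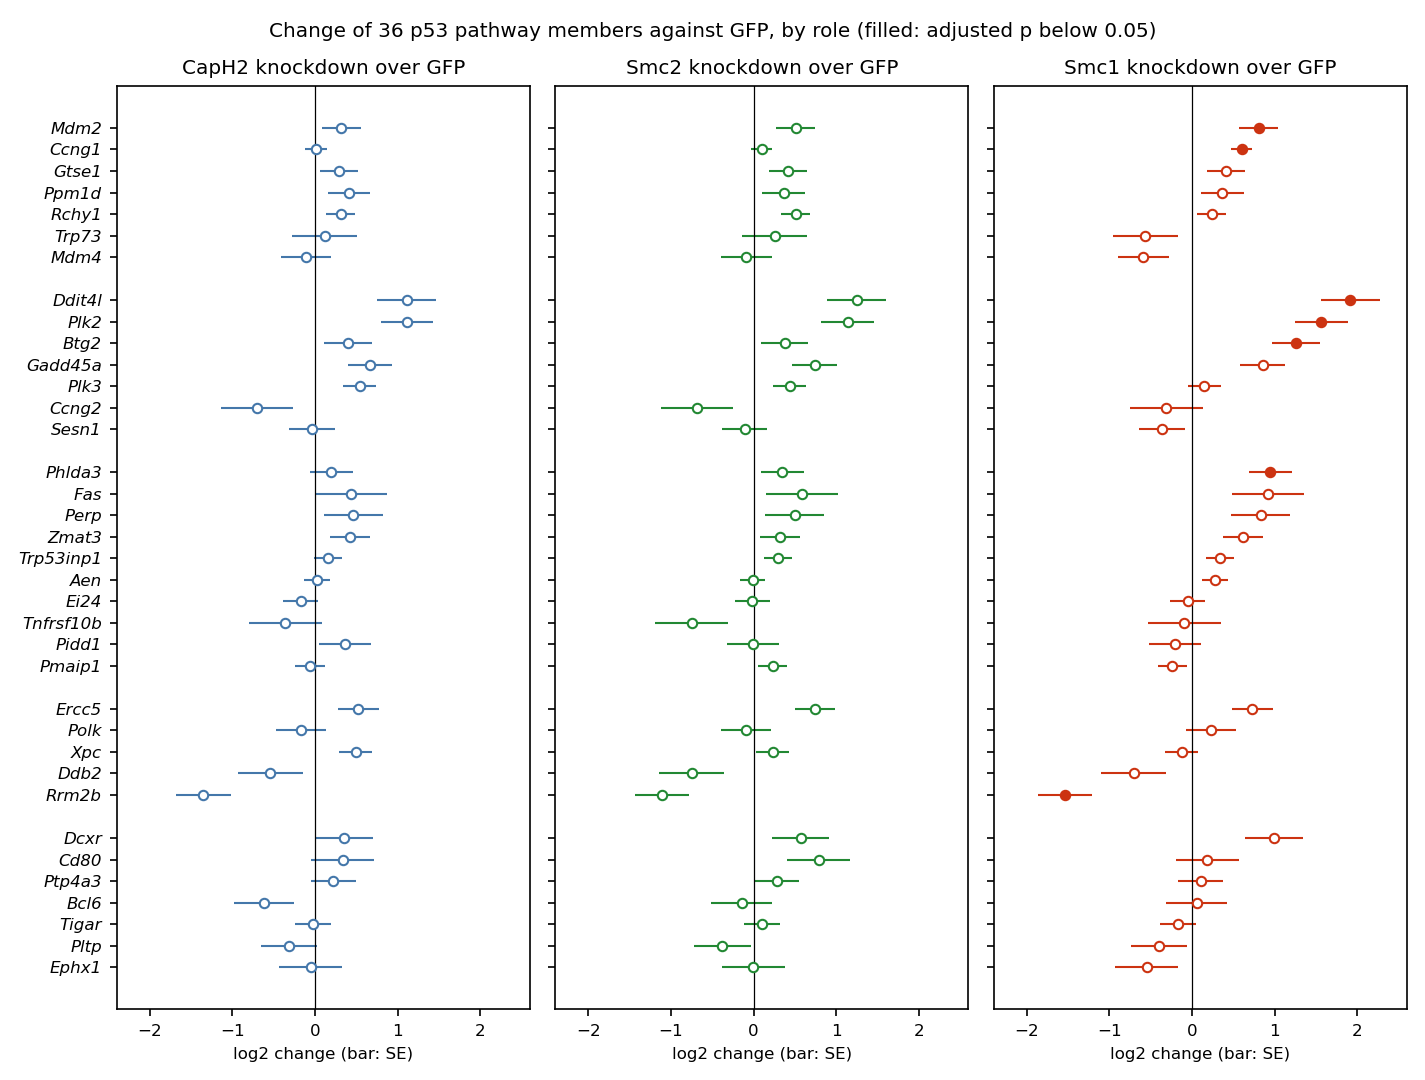
Log2 change of 36 p53 pathway members against GFP (horizontal axis) in the CapH2, Smc2 and Smc1 knockdowns, in blocks by role. Points are limma estimates with their standard errors from 2 arrays per group, and filled points have an adjusted p below 0.05. Filled points occur in the Smc1 panel, where Ddit4l lies at 1.91 and Rrm2b at -1.54. All 3 comparisons share the GFP arrays.

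**Figure D2:**
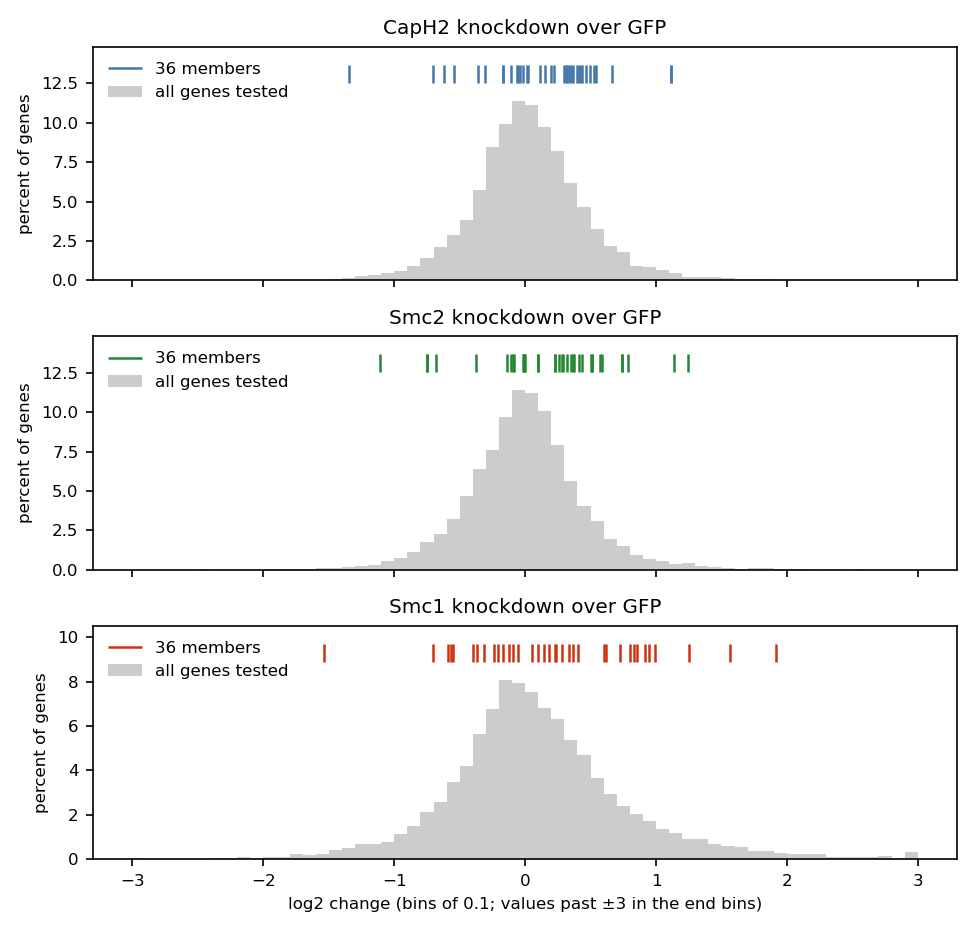
Log2 changes of all 12394 genes tested (grey bars, percent of genes per bin) and of the 36 members (coloured marks above the bars) against GFP in each knockdown. The members lie between -1.35 and 1.11 (CapH2), -1.11 and 1.25 (Smc2) and -1.54 and 1.91 (Smc1), inside the range of all genes, with medians of 0.21 (CapH2), 0.27 (Smc2) and 0.21 (Smc1), beside 0.01, -0.01 and 0.03 for all genes.

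Promoter sequences of the called members are shown because p53 binds a known DNA element that can be looked for in them. RefSeq windows on GRCm38.p6, from 250 bases before to 50 bases after each start, were matched for 27 of the 36 members, 6 of the 7 called ones among them. The p53 consensus half-site is the 10-base pattern RRRCWWGYYY, where R is A or G, W is A or T and Y is C or T. The pattern reads alike on both strands, though a single match to it need not. This half-site was present in 11 of these 27 genes (40.7%), beside 9.55% of all 27025 genes in the table. Among the called members it was found for Ccng1, Ddit4l and Mdm2, and not within these windows for Btg2, Phlda3 and Plk2. The lines below give these 3 promoters 5′ to 3′ on the gene's strand with the half-site in capitals, for Ccng1 chr11:40755237-40755536 (minus strand), for Ddit4l chr3:137623422-137623721 (plus strand) and for Mdm2 chr10:117710709-117711008 (minus strand).
Ccng1: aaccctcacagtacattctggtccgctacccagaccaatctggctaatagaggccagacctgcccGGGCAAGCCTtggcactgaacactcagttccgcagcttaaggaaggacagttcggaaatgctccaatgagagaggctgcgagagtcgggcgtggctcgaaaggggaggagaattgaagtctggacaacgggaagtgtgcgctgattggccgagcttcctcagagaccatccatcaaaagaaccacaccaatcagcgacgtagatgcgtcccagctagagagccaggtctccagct
Ddit4l: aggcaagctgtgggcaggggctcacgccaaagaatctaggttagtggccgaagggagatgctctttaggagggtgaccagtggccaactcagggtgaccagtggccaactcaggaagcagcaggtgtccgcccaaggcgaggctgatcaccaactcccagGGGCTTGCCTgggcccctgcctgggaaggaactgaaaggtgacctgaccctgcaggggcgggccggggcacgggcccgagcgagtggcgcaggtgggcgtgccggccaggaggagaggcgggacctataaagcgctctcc
Mdm2: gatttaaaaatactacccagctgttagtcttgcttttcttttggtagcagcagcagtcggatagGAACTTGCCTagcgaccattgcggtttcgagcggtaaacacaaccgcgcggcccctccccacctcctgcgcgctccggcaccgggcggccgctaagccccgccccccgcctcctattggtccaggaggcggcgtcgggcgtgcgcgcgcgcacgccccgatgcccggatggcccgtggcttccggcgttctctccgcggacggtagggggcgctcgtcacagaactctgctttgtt
The half-site starts 185 bases before the annotated start in Ccng1, 90 bases before it in Ddit4l and 186 bases before it in Mdm2. In Ccng1 the 10 bases just before it match the half-site at 9 positions, so that 19 of 20 bases of a full site without a spacer are met. The best 20 bases met only 16 in Ddit4l and 15 in Mdm2. That was no more than in genes without a half-site here, 16 in Btg2 and 15 in Phlda3 and Plk2. At least 18 of 20 were met in 4 of the 27 members (Ccng1, Gtse1, Cd80 and Trp73), 14.8%, beside 0.94% of all genes. Of these 4, Ccng1 alone was called in the Smc1 knockdown. These matches describe the letters and do not show binding. The members were listed as p53 targets or regulators, so a share above that of all genes can come from the choice of list. It says nothing about the knockdowns.

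The regulators of p53 include the genes that close its feedback loop. Mdm2, with a half-site in its promoter, had an intensity of 3966 and 3687 in Smc1, 3440.2 and 2156 in CapH2 (hairpin 3, then hairpin 4), 2612 and 3708 in Smc2 (hairpin 1, then hairpin 2), and 2159.9 and 2208 in GFP. Both Smc1 arrays were above both GFP arrays, while CapH2 hairpin 4 was at the GFP level. The rise in Smc1 was 1.75-fold, or 0.80 on the log2 scale (SE 0.237, limma adjusted p = 0.0494, 2 arrays in each group). That call held in 9 of 19 alternatives. It was lost, among others, with a pseudocount of 1 (adjusted p = 0.0525), without the filter (0.0715) and without the intensity trend (0.0996). With the mean of all probe sets (0.54, adjusted p = 0.193) it was lost too. That mean takes in a dim probe set, above the array median on 0 of the 8 arrays, which read 0.05 in Smc1. The remaining probe set of Mdm2 read 0.77. Ccng1, or cyclin G1, which brings a phosphatase to Mdm2 and whose promoter nearly holds a full p53 site, measured 15415 and 15605 in Smc1, 11298 and 9419.6 in CapH2, 10259 and 11699.6 in Smc2, and 10227 and 10214 in GFP. It rose by 0.60 (SE 0.129, adjusted p = 0.0157) in Smc1. On this probe set CapH2 had an array on either side of GFP and the Smc2 arrays lay just above it. Its 2 other probe sets read higher in these knockdowns, 0.34 and 0.35 in CapH2 and 0.48 and 0.35 in Smc2. Fold changes here are on the scale of log2(value + 16), which understates changes of dim genes.

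Mdm4 measured 1586 and 2887 in Smc1, 2615 and 3427 in CapH2, 2348 and 3927 in Smc2, and 3397 and 3067 in GFP. Its spread within the knockdown groups was wide, and it was not called (-0.59 in Smc1, adjusted p = 0.223). Its probe sets did not agree in direction, with 0.16, -0.68 and -0.19 in Smc1 on the 3 others above the filter. Rchy1, another ubiquitin ligase for p53, the phosphatase gene Ppm1d and Gtse1, whose product moves p53 out of the nucleus, had changes of 0.24, 0.37 and 0.41 in Smc1 and were not called. Both Smc1 arrays were above both GFP arrays in all of these 3 genes. Trp73, which codes for a relative of p53, measured 44.1 and 118 in Smc1, against 143 and 95.3 in GFP, near the array medians.

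Of the 7 genes that restrain growth or answer to stress, 3 rose in the Smc1 knockdown (42.9%, beside 9.3% of all genes) and none fell (beside 4.69%). Ddit4l, an inhibitor of mTOR signalling and the third called gene with a half-site, measured 1168 and 957 in Smc1, 937 and 381 in CapH2, 568 and 766 in Smc2, and 252 and 287 in GFP. All 6 knockdown arrays were above both GFP arrays, and the log2 change was 1.91 in Smc1 (SE 0.356, adjusted p = 0.00938), the largest rise among the members. In the CapH2 and Smc2 knockdowns it was 1.11 and 1.25 (SE 0.356 each, adjusted p = 0.302 and 0.241), not called. Plk2, a kinase of the polo family induced by stress, measured 2263 and 2714 in Smc1, 2697 and 1213 in CapH2, 1815 and 1871 in Smc2, and 723 and 948 in GFP. Again all knockdown arrays lay above GFP, with log2 changes of 1.56 in Smc1 (SE 0.318, adjusted p = 0.0129), 1.11 in CapH2 and 1.14 in Smc2 (adjusted p = 0.265 and 0.240). Btg2, which slows proliferation, measured 2219 and 2134 in Smc1, 1514 and 941 in CapH2, 887 and 1558 in Smc2, and 955 and 853 in GFP. It rose by 1.25 in Smc1 (SE 0.288, adjusted p = 0.0203), with 1 array of each condensin knockdown inside the range of the GFP arrays.

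**Figure D3:**
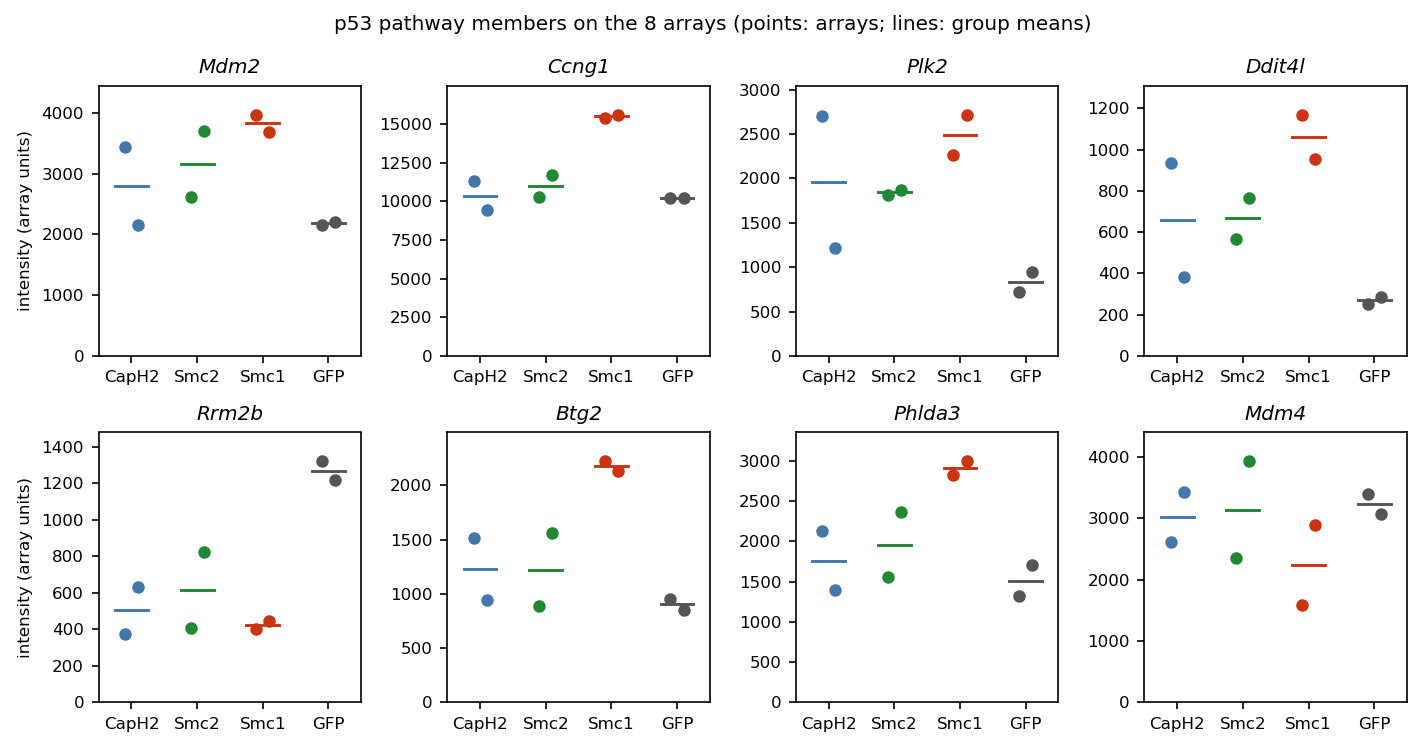
Intensity of the 7 members called in the Smc1 knockdown and of Mdm4 on each of the 8 arrays (points), with group means (lines), for the CapH2, Smc2, Smc1 and GFP groups. The 2 Smc1 arrays lie above all other arrays for Ccng1, Ddit4l, Btg2 and Phlda3, and every knockdown array lies below both GFP arrays for Rrm2b.

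Gadd45a, a stress sensor that inhibits growth, measured 2828 and 1878 in Smc1, 2666 and 1528 in CapH2, 2170.2 and 2087 in Smc2, and 1325 and 1212 in GFP. All 6 knockdown arrays were higher than both GFP arrays, but the changes of 0.85, 0.66 and 0.74 were not called (adjusted p = 0.0624, 0.373 and 0.324). Plk3, a relative of Plk2, had smaller differences (0.15 in Smc1, 0.54 in CapH2 and 0.44 in Smc2). Ccng2, or cyclin G2, which is known also as a target of FoxO factors, measured 1664 and 2171 in Smc1, 949 and 2199.7 in CapH2, 925 and 2320.1 in Smc2, and 2559 and 2181 in GFP. The CapH2 hairpin 3 and Smc2 hairpin 1 arrays were the lowest. Sesn1, a sestrin that restrains mTOR, had a log2 change of -0.37 in Smc1 without a call.

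Among the 10 genes linked to cell death 1 was called in the Smc1 knockdown (10%, beside 14% of all genes). Phlda3, whose product competes with the kinase Akt at the membrane, measured 2830.2 and 2993 in Smc1, 2126 and 1398 in CapH2, 1552 and 2365 in Smc2, and 1322 and 1706 in GFP. It rose by 0.95 in Smc1 (SE 0.258, adjusted p = 0.0377), and the CapH2 and Smc2 arrays reached into the GFP range. Fas, the death receptor, measured 94.9 and 129 in Smc1, 82.5 and 68.0 in CapH2, 58.4 and 122 in Smc2, and 32.1 and 78.3 in GFP. It lay near the array medians and was not called (0.92 in Smc1, adjusted p = 0.186). Perp, a membrane protein gene, and Zmat3, an RNA-binding protein gene, had changes of 0.83 and 0.62 in Smc1 (adjusted p = 0.145 and 0.117) with both Smc1 arrays above both GFP arrays. Pmaip1, which codes for the death protein Noxa, was at 5458 and 4469 in Smc1, against 6185 and 5501 in GFP (-0.24, adjusted p = 0.391). Aen, an exonuclease gene, and Trp53inp1 differed by 0.28 and 0.34, and Ei24, Tnfrsf10b (a receptor for TRAIL) and Pidd1 by -0.05, -0.09 and -0.21, without a call.

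Of the 5 genes of DNA repair and nucleotide supply, 1 fell in the Smc1 knockdown (20%, beside 4.69% of all genes) and none rose (beside 9.3%). Rrm2b, the p53-induced small subunit of ribonucleotide reductase, measured 404 and 447 in Smc1, 375 and 632 in CapH2, 405 and 826 in Smc2, and 1319 and 1216 in GFP. It was the single member that fell, with a log2 change of -1.54 in Smc1 (SE 0.331, adjusted p = 0.0159), to 34.4% of GFP. Every knockdown array was below both GFP arrays, and the changes of -1.35 in CapH2 and -1.11 in Smc2 were not called (adjusted p = 0.211 and 0.258). Without the Smc2 hairpin 2 array Rrm2b was called in the Smc2 knockdown (-1.61, adjusted p = 0.0424). Ddb2, a sensor of ultraviolet damage, measured 489.7 and 723 in Smc1, 528 and 842 in CapH2, 367 and 901 in Smc2, and 1122 and 855 in GFP. Both Smc1 and both CapH2 arrays lay below GFP, with -0.70 in Smc1 and no call (adjusted p = 0.255). Ercc5, an endonuclease gene of nucleotide excision repair, was higher on all 6 knockdown arrays, 1081 to 1783, than on the GFP arrays, 828 and 899, and was not called (0.73 in Smc1, adjusted p = 0.0771). Xpc, the damage recognition gene, had -0.13 and the translesion polymerase gene Polk 0.23 in Smc1.

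None of the 7 genes of metabolism or of other function was called in limma in Smc1, beside 14% of all genes. An unadjusted p below 0.05 was seen in 1 of them (14.3%), beside 31.2% of all genes. Dcxr, a carbonyl reductase gene, measured 2187 and 3634 in Smc1, 2112 and 1541 in CapH2, 1441 and 3058 in Smc2, and 1335 and 1490.0 in GFP (0.99 in Smc1, adjusted p = 0.0831). Both Smc1 arrays and both CapH2 arrays exceeded both GFP arrays, and 1 of the Smc2 arrays lay within the GFP range. Tigar, a phosphatase that slows glycolysis, the lipid transfer gene Pltp, the epoxide hydrolase gene Ephx1, the phosphatase gene Ptp4a3, the repressor gene Bcl6 and the costimulatory ligand gene Cd80 had changes between -0.55 and 0.18 in Smc1. In each of these the Smc1 and GFP arrays overlapped.

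Other probe sets of the same genes gave a further reading on the same arrays. Of 36 such probe sets, 27 passed the filter, for 17 members, and 25 of the 27 had the sign of the brightest one in Smc1. For the 7 called members all 9 other probe sets, which cover 5 of the genes, had the same sign in each of the 3 knockdowns. In Smc1 they read 1.62 for Btg2, 0.79 and 0.98 for Ccng1, 1.09 and 1.50 for Ddit4l, 0.77 for Mdm2 and -1.52, -1.54 and -1.80 for Rrm2b. For Ccng1 they read 0.34 and 0.35 in CapH2 and 0.48 and 0.35 in Smc2, against 0.01 and 0.10 on the brightest. For Btg2 they read 0.78 in CapH2 and 0.72 in Smc2, against 0.40 and 0.38. For Mdm2 they read 0.57 and 0.66, against 0.32 and 0.51, while those of Ddit4l were smaller than the brightest in both.

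The calls in the Smc1 knockdown rested on all of its arrays and controls. Leaving out a Smc1 or GFP array leaves 1 array in its group, and calls then became fewer among the members and among all genes. Without Smc1 replicate 1, Ddit4l stood at 1.77 and Rrm2b at -1.47. Without GFP replicate 1 they stood at 1.83 and -1.48. Over 19 alternatives the call of Ddit4l held in 15, those of Btg2, Plk2 and Rrm2b in 14, that of Ccng1 in 13 and that of Phlda3 in 10. All 7 changes kept their direction in every alternative tried, with Ddit4l between 1.49 and 2.06 and Rrm2b between -1.61 and -0.75. The ratio of the 3' to the 5' probe set of a gene follows how intact the labelled RNA is. For Gapdh it was 0.833 and 0.862 in Smc1, against 0.864 and 0.857 in GFP. For Actb the ratio was 1.70 and 1.84 in Smc1, against 2.18 and 2.04 in GFP. Both Smc1 arrays had a lower Actb ratio than both GFP arrays, so the ratio cannot be told apart from the knockdown. With it as a covariate none of the 7 was called (limma adjusted p between 0.0670 and 0.198). Calls of all genes went from 14% to 4.59%. Plk2 then stood at 1.09, Rrm2b at -0.75 and Ddit4l at 1.49. Ccng2 was the 1 member called, as higher (0.87, adjusted p = 0.0398), against -0.31 without the covariate. Its intensities in both Smc1 arrays lay below those in both GFP arrays. Feeder fibroblast markers summed to 18177 and 16437 in Smc1, against 9847 and 16155 in GFP, with 11140.3 to 14794 in CapH2 and Smc2. Most of that sum came from Vim, at 6994 and 6377 in Smc1, against 5307 and 9207 in GFP, and Acta2, at 8653 and 7799 in Smc1, against 3077 and 5350.4 in GFP. Of 15 tested of 22 listed, Col3a1 and Pdgfra rose in Smc1 (13.3%, beside 9.3% of all genes) and 4 had a change below 0. Postn had the lowest, -1.16, at 19.5 and 26.1 in Smc1, against 68.1 and 73.1 in GFP. The collagen gene Col1a1 was at 114 and 65.8 in Smc1, against 36.3 and 71.1 in GFP, and none of those tested was at 0. The part of feeder cells in the changes was not tested, and in bulk RNA a change in the share of cells cannot be told apart from a change per cell.

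The arrays of the 2 CapH2 hairpins, and those of the 2 Smc2 hairpins, differed among p53 pathway genes. Ncaph2 was at 398 and 429.5 with CapH2 hairpins 3 and 4, against 3469 and 3168 in GFP, and Smc2 was at 2234 and 2859 with Smc2 hairpins 1 and 2, against 8756 and 7146 in GFP. On the CapH2 hairpin 3 array 22 of the 36 members lay above both GFP arrays and 11 below both, and on the hairpin 4 array 11 and 7. Of all genes tested, 41.2% and 35.5% lay above both GFP arrays on these arrays, and 37.6% and 33.2% below both. For Smc2, 14 members lay above both GFP arrays with hairpin 1 and 28 with hairpin 2 (38.9% and 77.8%), beside 37.4% of all genes on each of the 2 arrays, and 12 and 1 lay below both (33.3% and 2.78%), beside 42.1% and 31.5% of all genes. The median absolute log2 difference between the arrays of a group was 0.45 for the members in CapH2, beside 0.26 for all genes. It was 0.49 beside 0.30 in Smc2, 0.30 beside 0.23 in Smc1 and 0.17 beside 0.22 in GFP.

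The direction of this spread was not shared by all members. With CapH2 hairpin 3, Ddit4l (2.40-fold), Perp (2.21-fold) and Plk2 (2.21-fold) were higher than with hairpin 4, while Ccng2 was higher with hairpin 4 (2.30-fold). With CapH2 hairpin 3, 26 of 36 members were higher than with hairpin 4, beside 51.4% of all genes. With Smc2 hairpin 1, 4 were higher than with hairpin 2, beside 44.8% of all genes. Arrays of 1 and the same hairpin were also split, with 7 of 36 members higher on the first Smc1 array than on the second, beside 44.4% of all genes, and 16 of 36 on the first GFP array, beside 47.4%. With Smc2 hairpin 2, Tnfrsf10b (3.03-fold), Ccng2 (2.48-fold), Ddb2 (2.39-fold), Ephx1 (2.18-fold), Dcxr (2.11-fold) and Polk (2.06-fold) were more than 2-fold higher than with hairpin 1. Tnfrsf10b was at 48.5 with hairpin 1, below that array's median of 62.5, and at 179 with hairpin 2. Differences over 2-fold in either direction made up 16.7% of the members in Smc2 and 11.1% in CapH2, beside 6.9% and 4.63% of all genes. With 1 array per hairpin the differences between hairpins have no test, and hairpin and array cannot be told apart. The 3' to 5' Actb ratio also differed, at 1.67 and 1.98 with CapH2 hairpins 3 and 4. It was 1.82 and 2.18 with Smc2 hairpins 1 and 2. The Gapdh ratio was 0.79 and 0.86 in CapH2 and 0.81 and 0.85 in Smc2, in the same order. The part of RNA quality in the spread was not tested.

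**Figure D4:**
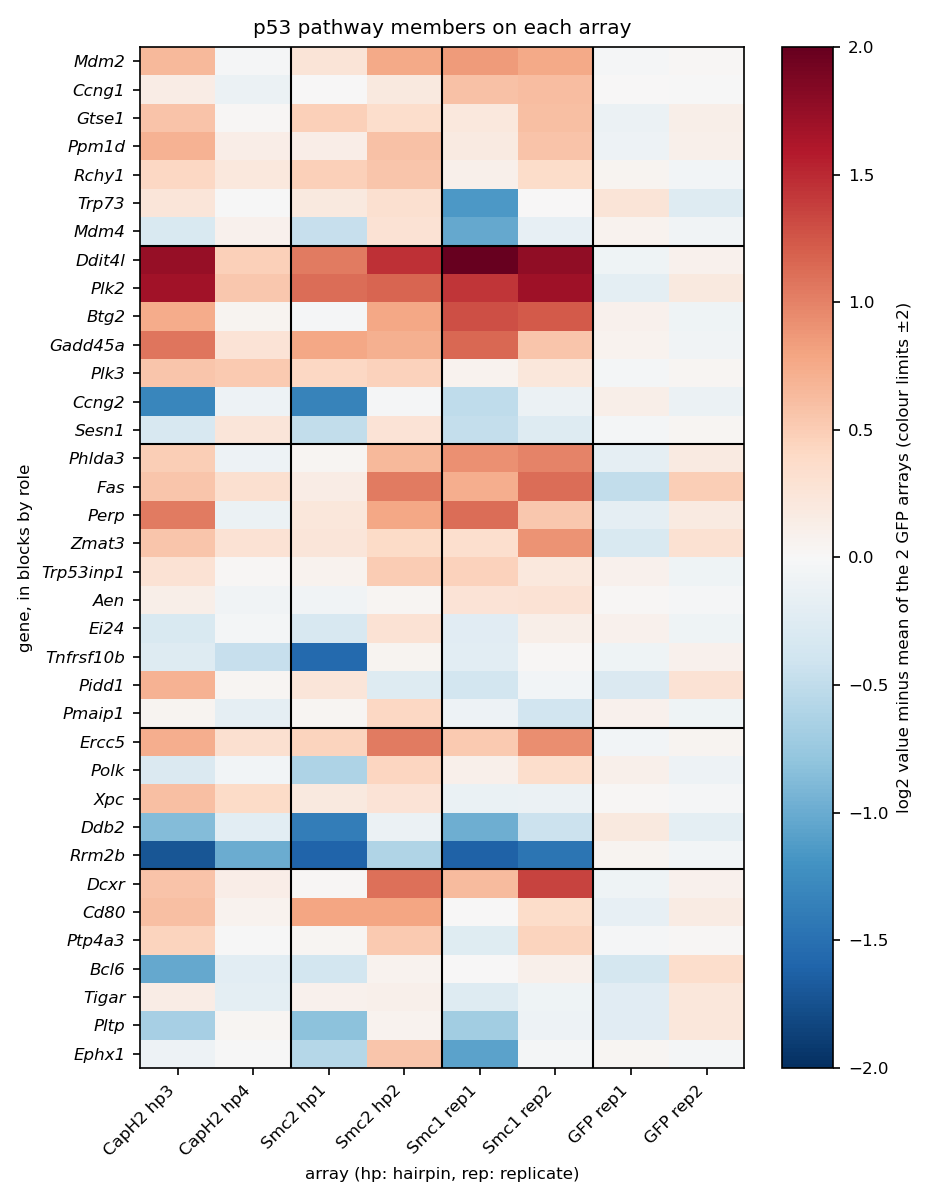
Log2 value of each of the 36 members (rows, in blocks by role) on each array (columns) minus the mean of the 2 GFP arrays, red for higher and blue for lower. Ddit4l and Plk2 are red and Rrm2b is blue on all 6 knockdown arrays, and more members are red on the CapH2 hairpin 3 than on the hairpin 4 array, with 22 and 11 above both GFP arrays.

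**Figure D5:**
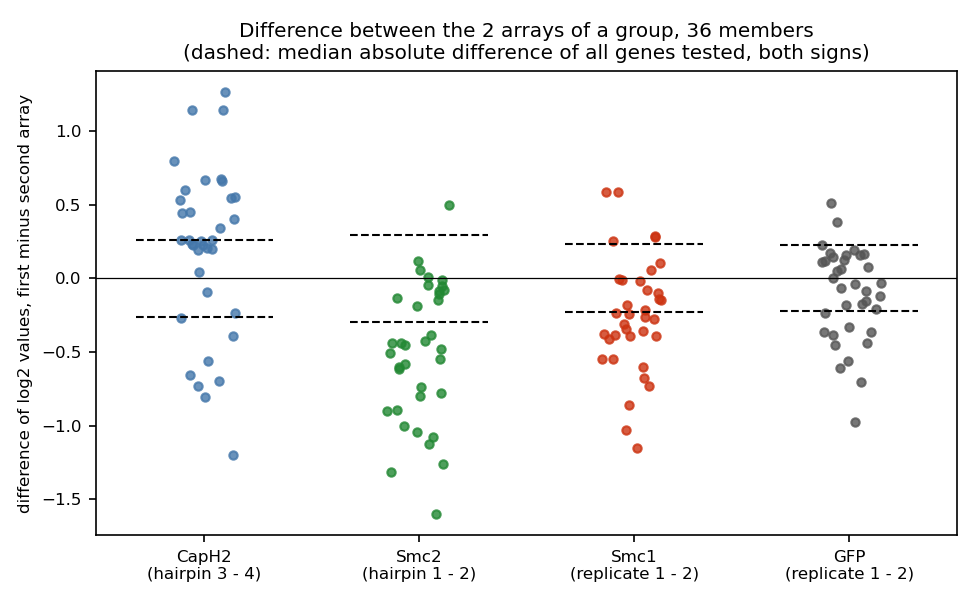
Difference of log2 values between the 2 arrays of each group for the 36 members (points), with the median absolute difference of all genes tested drawn at both signs (dashed lines). Members lie farther from 0 in CapH2 and Smc2, with median absolute differences of 0.45 and 0.49, than in GFP, with 0.17.

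The direct comparisons between knockdowns gave 1 call. Against the mean of the CapH2 and Smc2 groups, Ccng1 was higher in Smc1 by 0.54 (SE 0.112, adjusted p = 0.0211), 2.78% of the members beside 7.75% of all genes (5.53% higher and 2.23% lower). An unadjusted p below 0.05 was seen in 5 members, beside 23.6% of all genes. All Smc1 arrays lay above all condensin arrays in 5 members (13.9%) and below in 2 (5.56%), beside 20.5% and 14.6% of all genes, and 20 members had a difference above 0 (55.6%), beside 52.9%. This call was lost with median centring (0.48, adjusted p = 0.0541), without the intensity trend (adjusted p = 0.0885), and without CapH2 hairpin 4 (0.0614), Smc1 replicate 1 (0.202) or Smc1 replicate 2 (0.113). Btg2 (0.87), Ddit4l (0.73) and Phlda3 (0.67) had all Smc1 arrays above all condensin arrays and were not called (adjusted p = 0.0639, 0.184 and 0.0990). Plk2 (0.44), Mdm2 (0.39) and Rrm2b (-0.31) were not called either (adjusted p = 0.381, 0.286 and 0.566). Between CapH2 and Smc2 no member was called, beside 0.00807% of all genes, and differences lay between -0.48 and 0.39. In limma 0 members had an unadjusted p below 0.05, beside 1.03% of all genes. The CapH2 arrays lay above both Smc2 arrays in 2 members and below both in 2, beside 12.5% and 10.3% of all genes, and 11 members had a difference above 0 (30.6%), beside 53.4%.

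Genes around the set were counted from lists of the same pathway. Of 12 upstream kinases tested, 2 rose (16.7%) and 1 fell (8.33%) in Smc1, beside 9.3% and 4.69% of all genes. Hipk2, a kinase that phosphorylates p53, measured 827 and 646 in Smc1, 287 and 215 in CapH2, 207 and 177 in Smc2, and 119 and 203 in GFP (2.12, SE 0.285, adjusted p = 0.0031). Csnk1d, a casein kinase gene, rose by 1.42 and Chek1, the kinase of the replication checkpoint, fell by 0.96 (adjusted p = 0.0212 and 0.00786). Of 27 cofactors and modifiers of p53, 2 rose (7.41%) and 1 fell (3.7%). Setd7, a methyltransferase gene, rose by 1.60 and Crebbp, an acetyltransferase gene, by 0.91, while the acetyltransferase gene Kat2b fell by 0.52. Of 43 other direct targets 6 rose and 1 fell (14% and 2.33%, beside 9.3% and 4.69% of all genes). Among them Rprm, linked to arrest before mitosis, rose by 2.07, Mgst1, a glutathione transferase gene, by 1.74, Igfbp3, which binds insulin-like growth factors, by 1.71, and Casp8, the initiator caspase of death receptors, by 1.50. The calls of Igfbp3, Rprm and Mgst1 held in all 19 alternatives, and that of Hipk2 in 18, lost with the mean of all probe sets (0.81, adjusted p = 0.0650). That of Setd7 held in 18 of 19, that of Chek1 in 17, those of Crebbp and Brca1 in 14, that of Csnk1d in 12 and that of Kat2b in 7. For Casp8 it held in 15 of 18. Without Smc1 replicate 1 the calls of Setd7 (1.25, adjusted p = 0.0602), Chek1 (-1.01, 0.0692), Crebbp (0.95, 0.0969), Casp8 (1.25, 0.154), Csnk1d (1.28, 0.157), Kat2b (-0.43, 0.265) and Brca1 (-0.83, 0.139) were lost. Without GFP replicate 1 those of Chek1 (adjusted p = 0.0853), Crebbp (0.135), Casp8 (0.134), Csnk1d (0.152), Kat2b (0.201) and Brca1 (0.127) were lost as well. Of 23 genes known to be lowered through p21, only Brca1, a gene of recombination repair, was called. It fell (-0.97, adjusted p = 0.0152), which is 4.35%, beside 4.69% of all genes, and none rose, beside 9.3%. Both Smc1 arrays lay below both GFP arrays in 15 of the 23 (65.2%) and above both in 1 (4.35%), beside 28.4% and 34.5% of all genes. An unadjusted p below 0.05 was seen in 9 (39.1%), beside 31.2%. A change above 0 was seen in 2 of the 23 in Smc1, 6 in CapH2 and 7 in Smc2, beside 52.3%, 51.3% and 49.5% of all genes. In the CapH2 and Smc2 knockdowns no gene of these 4 lists was called.

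Cdkn1a, the p21 gene and a well known p53 target, measured 5239 and 4976 in Smc1, 2055 and 1649 in CapH2, 1629 and 2396 in Smc2, and 2655 and 3487 in GFP. Its Smc1 arrays were the highest and its condensin arrays all lay below GFP, with changes of 0.74 in Smc1 (adjusted p = 0.0510), -0.72 in CapH2 and -0.62 in Smc2 (adjusted p = 0.290 and 0.315), and it was higher in Smc1 than in the condensin knockdowns by 1.41 (SE 0.191, adjusted p = 0.00542). Without Smc1 replicate 1 that difference was 1.38 and not called (adjusted p = 0.106), while the change against GFP passed the threshold in 8 of 19 alternatives. Bbc3, the death gene Puma, measured 617 and 753 in Smc1, against 589.8 and 703 in GFP, without a call in any knockdown (0.08 in Smc1, 0.05 in CapH2 and 0.02 in Smc2). Bax was not analysed here.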

How the data were processed

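The authors deposited intensity on a linear scale, with a single value for each of 44903 probe sets on each of the 8 arrays. How probes were summarised is not stated in the sources used here. By the values, arrays share a trimmed mean (488.9 to 490.0 without the outer 2%), and no further scaling was added. The number of arrays limits the precision.

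Values were taken as log2(value + 16). Of the probe sets 34771 had 1 gene symbol, 926 several and 9206 none. Only the first were used, without the 64 array controls, and 0 symbols changed against the gene table of GRCm38.p6. The brightest probe set stood for each of 18140 genes, and 12394 genes passed the filter.

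All 8 arrays were fitted in limma 3.58.1 under R 4.3.3 (group means, trend in the moderation, 4 residual degrees of freedom), with Benjamini-Hochberg adjustment over all genes tested in each of 5 comparisons. P-values rest on 1 spread per gene over the 4 groups, which for CapH2 and Smc2 comes from different hairpins and for Smc1 and GFP from repeats of the same one. The fit was tested on simulated data. Alternatives changed the pseudocount, filter, normalization, probe set rule, moderation, covariates and arrays.

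Values on every array are given for Mdm2, Mdm4, called members and the 3 uncalled members with the largest change per knockdown, and for some others chosen after their values were seen. From other lists up to 4 called genes with the smallest adjusted p are named, and Cdkn1a and Bbc3 always. Members, lists and tests were chosen with earlier results of these data known.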

Additional observations from a re-analysis of the deposited data

How the results depend on the processing

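The 7 calls of members in the Smc1 knockdown became 6 with a pseudocount of 1 or the replicate block, 5 without the filter or with the mean of all probe sets, 4 without the intensity trend, 1 with the Actb ratio as a covariate and 12 when only the Smc1 and GFP arrays were fitted. They stayed 7 with a pseudocount of 64, a stricter filter, quantile normalization or median centring. Leaving out 1 array gave 0 to 9. The calls of all genes there, 1734 in the main setting, were 569 with the Actb ratio, 2701 with the compared groups alone and 138 to 2190 with 1 array left out. The 1 call of Smc1 against the condensin knockdowns became 0 with median centring or without the trend, 4 with the Actb ratio, and 0 to 3 with 1 array left out, and the calls of all genes (961) became 1646 with the Actb ratio, 594 without the filter, 598 with the compared groups alone and 9 to 1163 with 1 array left out. In the CapH2 and Smc2 knockdowns and between them no alternative called a member, except that Rrm2b was called in Smc2 without hairpin 2, so that leaving out 1 array gave 0 to 1. Of all genes, 2 in each of CapH2 and Smc2, the largest counts were 10 (CapH2, compared groups alone), 53 (Smc2, Actb ratio) and 194 (Smc2 without hairpin 2). With median centring the median over all genes in Smc2 was 0.10 on the log2 scale, against -0.01 as deposited, and Mdm4 there was 0.0180. The causes of these shifts were not tested, apart from the smaller number of arrays or genes that an alternative leaves.

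Some signs turned, each for a change that was not called in the main setting. With the Actb ratio Ccng1 was -0.0053 and Mdm4 0.45 in CapH2, Mdm4 was 0.13 in Smc2 and 0.0793 in Smc1 (-0.59 in the main setting), Ccng2 was 0.87 in Smc1 and called (-0.31 in the main setting), and Rrm2b was 0.0206 in Smc1 against the condensin knockdowns. With the mean of all probe sets Mdm4 was 0.0400 in Smc2. Leaving out 1 array gave in CapH2 -0.0771 to 0.17 for Bbc3, -0.12 to 0.14 for Ccng1, -0.0514 to 0.92 for Fas, -0.0185 to 0.65 for Mdm2, -0.30 to 0.0859 for Mdm4 and -0.10 to 0.50 for Phlda3. In Smc2 it gave -0.11 to 0.14 for Bbc3, -0.0251 to 0.78 for Btg2 and -0.46 to 0.28 for Mdm4, and in Smc1 -0.0604 to 0.22 for Bbc3.

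The replicate numbers shared by the Smc1 and GFP arrays are not stated to mark a day or batch, and deviations of same-numbered arrays correlated at 0.0667 across 12394 genes. With these numbers as a replicate block 6 members were called in Smc1, 5 of them among the 7 (Mdm2 and Phlda3 were lost and Zmat3 was added), 0 in CapH2 and Smc2, and 1, Ccng1, against the condensin knockdowns. The block was set for the Smc1 and GFP arrays only, so it left every log2 change as it was. It therefore cannot test for a batch among the condensin arrays.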
